A study of Mus musculus with 50 samples.

Results

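The copper chaperone *Ccs*, the superoxide dismutases *Sod1*, *Sod2* and *Sod3*, and the copper handling genes *Atox1*, *Atp7a* and *Slc31a1* were followed by symbol through both tables of counts, as 7 of the 24552 genes listed. The set was built around *Ccs*, which was chosen by its measured level, lower in D1 IPs of resilient mice than of controls, and no threshold was set. That difference is therefore given as a description without a test, and so is any value that restates it. RNA came from nucleus accumbens (NAc) tissue of C57BL/6 mice of 8 to 12 weeks that carried the RiboTag allele (RT), which puts an HA tag on a ribosomal protein in cells with Cre recombinase. In mice that also carried D1-Cre or D2-Cre, precipitation with an HA antibody yields mRNA on ribosomes of D1- or D2-receptor medium spiny neurons (IP), and the homogenate kept from the same samples yields RNA of all NAc cells (input). Mice were undefeated controls (Con), or had been attacked by a CD1 aggressor on repeated days and were then sorted by a social interaction test as resilient (Res) or susceptible (Sus). D1 IPs made up 4 Con, 4 Res and 5 Sus libraries and D2 IPs 5 of each, beside 3 inputs of every group in both lines, and a library is a pool of NAc from 2 mice. A second table held the same 4 D1 Con libraries and 4 D1 IPs of undefeated RT; Sirt1-floxed; D1-Cre males, labelled Sirt1-KO, whose age the labels do not give. Nothing in the labels ties a library to a named animal, so p-values measure the spread between pools.

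Superoxide dismutases turn superoxide into hydrogen peroxide, which catalase, peroxiredoxins and glutathione peroxidases then remove. SOD1 is a copper and zinc enzyme of the cytosol, SOD2 a manganese enzyme of mitochondria, and SOD3 a secreted copper and zinc enzyme. Copper enters the cell through CTR1, the product of *Slc31a1*, and is handed on by small chaperones, of which CCS loads SOD1 and ATOX1 supplies the copper pump ATP7A.

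The sequence feature by which copper chaperones and the copper pump are recognised is a methionine followed by a pair of cysteines that hold the metal, and it was not used to choose the genes. In-frame matches to this motif (M-x-C-x-x-C) were searched on the coding strand of 1 principal transcript per gene of the GENCODE vM21 annotation, on the GRCm38 (mm10) assembly. *Ccs* and *Atox1* held 1 match each and *Atp7a* held 6, while *Sod1*, *Sod2*, *Sod3* and *Slc31a1* held none in these transcripts. Of 21588 coding sequences searched in the same way, 287 (1.33%) held a match. The matches below, with the motif in capitals, show what the 3 genes share. *Ccs* has it in exon 2 at chr19:4838862-4838891 on the minus strand, *Atox1* in exon 2 at chr11:55454912-55454941 on the minus strand, and *Atp7a* has the first of its matches in exon 2 at chrX:106069830-106069859 on the plus strand.
Ccs: gtgcagATGAGTTGTCAGAGCTGTgtggat
Atox1: gtggacATGACCTGTGAGGGCTGTgctgaa
Atp7a: gagggaATGACATGTATTTCCTGTgtccgg

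Libraries held 18384265 to 31009626 counts on genes, and levels are given as counts per 1000000 (CPM), scaled with TMM factors over all 46 libraries. Summed over *Drd1*, *Pdyn*, *Tac1* and *Chrm4*, D1 markers ranged from 1101 to 1553 CPM in the D1 line's IPs and from 396 to 638 in the D2 line's. *Drd2*, *Adora2a*, *Penk* and *Gpr6*, the D2 markers, ranged from 2061 to 3471 CPM and from 5647 to 7999. D1 IPs were thus not free of D2 markers, which lay at 776 to 1324 CPM in inputs. All 4 D2 markers were higher in D1 IPs than in D1-line inputs at an adjusted p under 0.05 (edgeR), as were all 4 D1 markers. The median log2 fold changes were 0.89 and 1.07, and 39.2% of all genes were higher. Summed markers of cortical excitatory neurons ran from 381 to 1349 CPM in D1 IPs and from 21.2 to 292 CPM in D2 IPs.

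Per length of the principal transcript, *Sod1* was the most abundant of the 7 mRNAs on ribosomes and *Sod3* the least. Over the 28 IPs, mean CPM per kilobase was 277 for *Sod1*, 33.2 for *Sod2*, 18 for *Atox1*, 11.7 for *Ccs*, 3.65 for *Slc31a1*, 1.75 for *Atp7a* and 0.0780 for *Sod3*. In the 18 inputs the order was the same, with 174 for *Sod1*, 9.0 for *Ccs* and 1.67 for *Sod3*. The transcripts used for this scale were 641 bases long for *Sod1*, 1067 for *Ccs* and 5861 for *Sod2*, and the scale holds only as far as these isoforms are the ones used.

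*Ccs* (chr19:4825366-4839332, minus strand, 8 exons in the principal transcript) had its highest level in the D1 IPs of control mice. The 4 D1 Con libraries had 15.8, 16.0, 13.9 and 15.2 CPM. The 4 D1 Res libraries had 11.1, 11.5, 11.6 and 10.4 CPM, all below every D1 Con library. The 5 D1 Sus libraries had 12.3, 12.0, 12.2, 13.8 and 12.0 CPM, and the highest of them lay just under the lowest D1 Con library. By counts, which set the precision, D1 Con libraries held 386 to 443 *Ccs* reads and D1 Res libraries 248 to 332.

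In the D2 IPs the stress groups overlapped in *Ccs*. The D2 Con libraries had 13.8, 12.0, 12.6, 11.7 and 13.2 CPM, the D2 Res libraries 11.5, 12.4, 12.0, 11.8 and 12.5 CPM, and the D2 Sus libraries 10.8, 11.5, 12.1, 12.0 and 13.3 CPM. Inputs ranged from 7.51 to 11.1 CPM over all 18 libraries. In order of their means, D1 Con (15.2 CPM ± 0.92, SD, n = 4) came first, followed by D2 Con (12.7 ± 0.87, n = 5), D1 Sus (12.5 ± 0.74, n = 5), D2 Res (12.0 ± 0.42, n = 5), D2 Sus (11.9 ± 0.94, n = 5) and D1 Res (11.1 ± 0.53, n = 4). The step from D1 Con to D2 Con was the only step between neighbours in this order that exceeded the SD of both groups. D1 Con is part of the contrast that chose *Ccs*, so this step is a description.

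**Figure D1:**
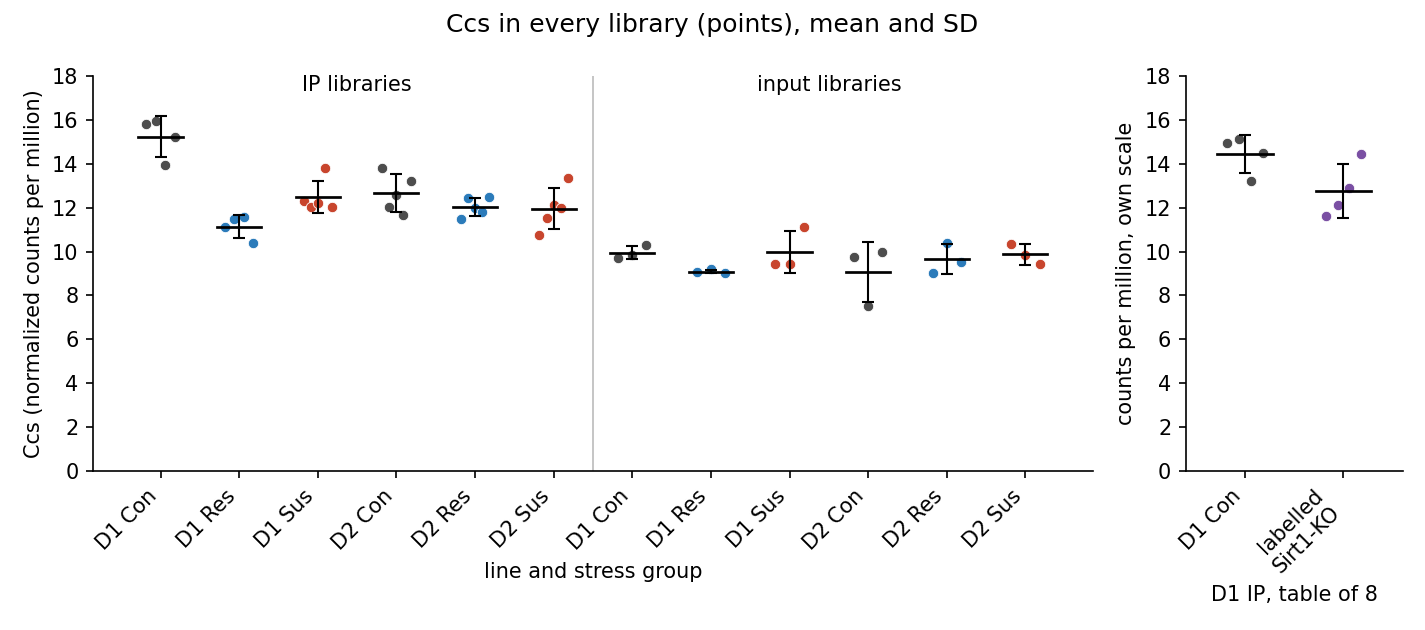
*Ccs* in CPM (y axis, from 0) for each line and stress group (x axis), with IPs and inputs in the left panel and the 4 D1 Con and 4 Sirt1-KO libraries, on the scale of their own table, in the right panel. Points are libraries and bars are the mean and SD, and the 4 D1 Con IPs lie between 13.9 and 16.0, above every other library of the left panel.

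The contrast that chose *Ccs*, D1 Res against D1 Con, had a log2 fold change of -0.45. In the same contrast the other 6 genes had log2 fold changes of -0.10 (*Sod1*), -0.01 (*Sod2*), -0.06 (*Atox1*), -0.04 (*Atp7a*), -0.04 (*Slc31a1*) and 0.64 (*Sod3*, with an SE of 0.74). At an unadjusted p under 0.05, which is the rule used for stress comparisons throughout, 1.08% of the 14224 genes tested were lower in this contrast, and nothing is read from that share for *Ccs*.

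In susceptible mice *Ccs* was also lower in D1 IPs than in controls. By edgeR's quasi-likelihood test it fell by 0.29 ± 0.07 (SE) on the log2 scale, with an unadjusted p of 0.000395 and an adjusted p of 0.860 over all genes. It was the 1 gene of 7 called in either direction and lower, where 5.24% of all genes tested were called and 2.82% were lower, and the median log2 fold change was 0.01 over the 7 genes and 0.00 over all genes. This comparison uses the same D1 Con libraries as the contrast that chose *Ccs*, so it is not independent of the choice. Against D1 Res, *Ccs* was higher in D1 Sus by 0.16 ± 0.07 (SE) with an unadjusted p of 0.0403 and an adjusted p of 1.00 by edgeR, again the 1 gene of 7 called, where 4.08% of all genes were called and 1.83% were higher. This comparison shares the D1 Res libraries with the one that chose *Ccs*. Its call was lost without D1 Res replicate 1 (unadjusted p of 0.0581), D1 Res replicate 4 (0.115) or D1 Sus replicate 4 (0.123), which is the Sus library with 13.8 CPM.

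Markers of other cells were called in some of the comparisons of D1 IPs. In D1 Res against D1 Con, 1 of 4 cholinergic interneuron markers was called higher (10.2 to 29.1 CPM summed against 9.95 to 11.7 CPM). No D2, astrocyte or other marker was called in that comparison. All 4 D2 markers were called lower in D1 Sus than in D1 Con, with summed levels of 2061 to 2607 CPM against 2370 to 3471 CPM, and 2 of 6 astrocyte markers were called higher (50.6 to 95.8 against 47.6 to 77.0 CPM). No D2 or astrocyte marker was at 0 in these libraries. There was 1 further call each among 4 endothelial and 2 general neuron markers, both lower. In D1 Sus against D1 Res, 2 of 4 D2 markers (2061 to 2607 CPM summed against 2347 to 2794 CPM), 1 of 4 endothelial and 1 of 3 smooth muscle and pericyte markers tested were called lower and 1 of 6 microglia markers higher. The part of these markers in the differences in *Ccs* was not tested. In this bulk RNA, fewer cells of a type and less RNA per cell cannot be told apart.

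In D2 IPs the log2 fold change of *Ccs* was -0.08 ± 0.07 (SE) in Sus against Con, -0.07 ± 0.07 in Res against Con and -0.01 ± 0.07 in Sus against Res, and none passed the edgeR test. The difference between the lines in the effect of susceptibility rests in part on the D1 Con libraries that chose *Ccs*, so it is not independent of the choice. It was itself tested as an interaction. It was -0.21 ± 0.10 (SE) on the log2 scale with an unadjusted p of 0.050, just under the threshold, and an adjusted p of 1.00. *Ccs* was the 1 gene of 7 called lower, where 1.08% of all genes were. RLE size factors (unadjusted p of 0.0523), a filter at 1 count (0.0749), a filter at a mean of 50 counts (0.0539) and DESeq2 (0.0662) each put it on the other side, as did leaving out 14 of the 19 libraries, 1 at a time (0.0516 to 0.125). For Res against Con the corresponding difference was -0.38, given without a test because the contrast that chose *Ccs* is its D1 arm.

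In control mice *Ccs* was higher in D1 IPs than in D2 IPs, by 0.25 ± 0.07 (SE) on the log2 scale with an adjusted p of 0.0181 (edgeR), the 1 gene of 7 called higher where 7.59% of all genes were. The comparison shares the D1 Con libraries with the contrast that chose *Ccs*. Without D1 Con replicate 2 the adjusted p was 0.0712 and without D2 Con replicate 4 it was 0.0568. Averaged over the 3 stress groups the difference between the lines was 0.06 ± 0.04 (SE) with an adjusted p of 0.272. Between the lines in controls, 2 of 4 cortical excitatory markers were called higher in D1 IPs, 3 of 4 cholinergic interneuron markers lower and none of 6 astrocyte markers in either direction. Over all groups, 4 of 4 cortical, 5 of 6 astrocyte and 4 of 6 oligodendrocyte markers were higher in D1 IPs. Lower were 3 of 4 cholinergic and 4 of 6 microglia markers. Of all genes 19.5% were higher and 21.2% lower. The endothelial, smooth muscle, ependymal, GABA interneuron and general neuron lists had at most 1 call per direction. Summed levels were 47.6 to 95.8 against 40.7 to 68.3 CPM for astrocyte and 7.62 to 29.1 against 56.2 to 121 CPM for cholinergic markers. The part of these markers in the line differences of *Ccs* and *Sod1* was not tested.

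Against input, *Ccs* was higher in the IPs of both lines. It had a lowest, median and highest level of 10.4, 12.2 and 16.0 CPM in the 13 D1 IPs and 9.02, 9.44 and 11.1 CPM in the 9 inputs of the D1 line. The log2 fold change was 0.41 ± 0.05 (SE, adjusted p = 9.56e-10) in the D1 line and 0.35 ± 0.05 (SE, adjusted p = 1.75e-08) in the D2 line by edgeR. The D1 value includes the D1 Con and D1 Res IPs that chose *Ccs*, so it is not independent of the choice. Here and for the other genes, IPs and inputs of the same homogenate were not paired in this test. In inputs *Ccs* did not pass the test in any stress comparison, with log2 fold changes of 0.07 ± 0.08 (SE) for Sus against Con, -0.02 ± 0.08 for Res against Con and 0.09 ± 0.08 for Sus against Res. Within the D1 line the 3 Res inputs (9.02 to 9.18 CPM) lay below the 3 Con inputs (9.70 to 10.3 CPM) and the 3 Sus inputs (9.43 to 11.1 CPM) without overlap, with a log2 ratio of the means of -0.13 for Res over Con and 0.14 for Sus over Res. The D1-line Con and Res inputs come from homogenates that also gave D1 IPs of the contrast that chose *Ccs*. Their values are therefore a description and not independent of the choice. In the D2 line all groups overlapped and Res over Con was 0.09. The difference between the lines was not tested.

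The gene next to *Ccs* is *Ccdc87*, which starts 34 bases away on the other strand, and the nearest on its other side is *Rbm14*, 13732 bases away on the same strand. Neither passed the test in D1 IPs. *Ccdc87* had log2 fold changes of -0.05 ± 0.18 (SE) in Sus and -0.08 ± 0.19 in Res against Con, and *Rbm14* of 0.05 ± 0.06 and -0.04 ± 0.06. *Ccdc87* did pass where *Ccs* did in other comparisons. It was higher in D1 than in D2 IPs of controls (0.77 ± 0.19, SE, adjusted p = 0.00525, edgeR), and its response to susceptibility differed between the lines by -0.54 ± 0.26 (SE, unadjusted p of 0.0449), with a value of 0.49 ± 0.18 (SE, unadjusted p of 0.0114) in D2 Sus against D2 Con. The library kit keeps the strand, but the strand setting of the counting is not given in the sources used here.

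The genes whose levels followed *Ccs* most closely over the 28 IPs, as Pearson's r of log2 CPM centred within each line among the 11766 other genes that averaged 50 counts or more, were *Mrpl40* (r = 0.68), *Rnaseh1* (0.62), *Snrnp48* (0.60), *Yipf2* (0.60) and *Dpm2* (0.59). The points share libraries, depth and the groups that chose *Ccs*, so these values are descriptions. *Mrpl40*, which encodes a mitochondrial ribosomal protein, stood at 21.0 CPM ± 1.42 (SD, n = 4) in D1 Con, 18 ± 2.0 (n = 4) in D1 Res and 18.5 ± 0.79 (n = 5) in D1 Sus. Among the other genes followed here *Sod1*, the enzyme that CCS loads, had the highest likeness to *Ccs* (r = 0.47, place 88 of 11766), and *Atp7a* had the lowest (r = -0.24).

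*Sod1* (chr16:90220754-90226329, plus strand) was more abundant in IPs than in inputs of both lines. Its lowest, median and highest levels were 155, 173 and 192 CPM over the 13 D1 IPs and 163, 179 and 222 CPM over the 15 D2 IPs. Inputs had 103, 114 and 121 CPM in the D1 line and 97.7, 113 and 120 CPM in the D2 line. IPs and inputs did not overlap. IP over input was 0.62 ± 0.04 (SE, adjusted p = 1.57e-16) on the log2 scale in the D1 line and 0.71 ± 0.04 (SE, adjusted p = 1.07e-18) in the D2 line by edgeR.

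Between the lines *Sod1* was lower in D1 than in D2 IPs by a small amount, and the call was fragile. The difference was -0.10 ± 0.04 (SE) on the log2 scale with an adjusted p of 0.0463 by edgeR. It was the 1 gene of 7 called, where 40.6% of all genes were called and 21.2% were lower, and all but 10 of the 28 fits without 1 library put its adjusted p above 0.05, at up to 0.0991. With RLE size factors, either other filter or DESeq2, *Sod2* was called in its place, higher in D1 IPs. *Scaf4*, which overlaps *Sod1* on the other strand without sharing exons, was lower in D1 IPs as well (-0.20 ± 0.05, SE, adjusted p = 0.00226, edgeR). With a fold change over 1.5 also asked for, none of the 7 genes was called between the lines, over all groups or in controls, where 7.62% and 4.85% of all genes were.

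No stress comparison of *Sod1* passed the test, but those of Sus against Con lay close to the threshold. The 4 D1 Con libraries had 192, 178, 168 and 188 CPM, the 4 D1 Res libraries 160, 161, 184 and 173 CPM and the 5 D1 Sus libraries 157, 155, 161, 175 and 180 CPM, with overlap between all groups. In D1 IPs the log2 fold change of Sus against Con was -0.13 ± 0.07 (SE, unadjusted p of 0.0581) and in D2 IPs -0.13 ± 0.06 (SE, unadjusted p of 0.0561) by edgeR. Leaving out D1 Con replicate 3 (unadjusted p of 0.0279), D1 Sus replicate 4 (0.0436) or D1 Sus replicate 5 (0.0305) put the D1 value under 0.05, and leaving out D2 Con replicate 2 (0.00962) or 3 (0.0308) did so in D2. With the replicate block *Sod1* was called lower in both (unadjusted p of 0.0149 in D1 and 0.0329 in D2), although these numbers were not taken as pairs, and it was called with only the 2 groups' libraries in D1 (0.0448) and with a filter at 1 count in D2 (0.0489). In D2 IPs of Res against Con it was -0.09 ± 0.06 (SE) and was called without D2 Con replicate 2 (unadjusted p of 0.0382) or D2 Res replicate 1 (0.0496). In inputs Sus against Con was -0.02 ± 0.05 (SE).

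Set against *Sod1* within each library, a ratio that needs no normalization, *Ccs* stood highest in D1 Con among the IP groups. D1 Con had 8.40 ± 0.37 *Ccs* counts per 100 *Sod1* counts (SD, n = 4), D1 Sus 7.55 ± 0.49 (n = 5) and D1 Res 6.59 ± 0.54 (n = 4), while the 15 D2 IPs had 6.72 ± 0.50. In the inputs of the D1 and D2 lines the ratio was 8.69 ± 0.92 and 8.58 ± 0.89 (SD, n = 9 each). The D1 Con libraries (8.10 to 8.94) did not overlap with D1 Res (6.00 to 7.16) or D1 Sus (6.68 to 7.88), and no test is given because the ratio restates *Ccs*.

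**Figure D2:**
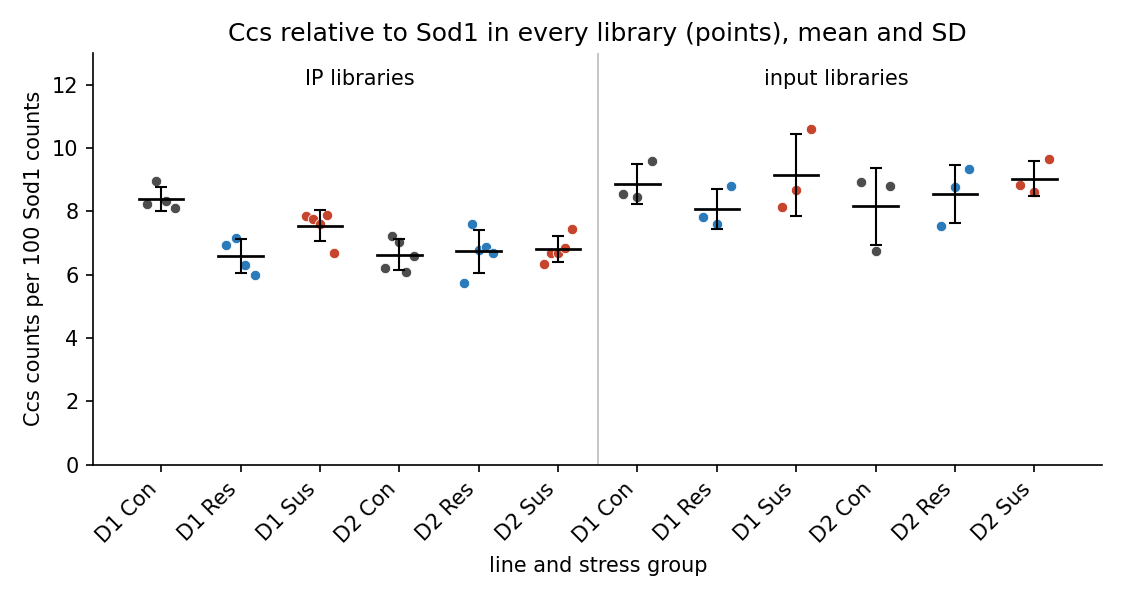
*Ccs* counts per 100 *Sod1* counts (y axis, from 0) in each line and stress group (x axis), for IPs on the left and inputs on the right. Points are libraries and bars are the mean and SD, and among the IPs the 4 D1 Con libraries are the highest, at 8.10 to 8.94.

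*Sod2* (chr17:13006846-13040063, plus strand), the mitochondrial enzyme, was higher in IPs than in inputs and passed no stress comparison. Its lowest, median and highest levels were 176, 199 and 235 CPM for D1 IPs, 168, 190 and 205 for D2 IPs, 156, 165 and 175 CPM in D1-line inputs and 169, 172 and 181 CPM in D2-line inputs. IP over input was 0.29 ± 0.04 (SE, adjusted p = 1.98e-09) on the log2 scale in the D1 line and 0.13 ± 0.04 (SE, adjusted p = 0.00160) in the D2 line by edgeR. With the filter at a mean of 50 counts the D2 value was 0.05 (adjusted p = 0.189). The 6 stress comparisons in IPs gave log2 fold changes between -0.05 and 0.01, none of which passed the test.

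*Sod3* (chr5:52363791-52371418, plus strand), the secreted enzyme, was at very low counts in IPs. The 28 IPs held 0 to 19 *Sod3* counts each and the 18 inputs 94 to 236, or 4.09 to 8.24 CPM, so that no IP reached the level of any input. On the log2 scale IP over input was -4.31 ± 0.27 (SE, adjusted p = 2.69e-18) in the D1 line and -4.62 ± 0.26 (SE, adjusted p = 1.20e-19) in the D2 line by edgeR. Markers of several other cell types were lower in IPs as well, though not of all. The summed levels were 67.4 CPM in D1 IPs against 784 CPM in inputs for 6 astrocyte markers, 8.83 against 73.3 CPM for 4 smooth muscle and pericyte markers, 4.77 against 71.4 CPM for 4 endothelial markers, 23.6 against 319 CPM for 6 microglia and 570 against 4247 CPM for 6 oligodendrocyte markers. They were 65.8 against 170 CPM for 3 markers of GABA interneurons and 14.6 against 13.6 CPM for 4 ependymal and choroid plexus markers. The source of *Sod3* in the NAc was not tested.

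In inputs *Sod3* was called lower in susceptible mice than in either other group. The 3 D1-line Con inputs had 6.22, 6.96 and 7.01 CPM, the Res inputs 7.29, 7.65 and 6.81 CPM and the Sus inputs 4.56, 4.74 and 4.09 CPM, so that Sus lay below both other groups without overlap. The 3 D2-line Con inputs had 7.39, 4.87 and 5.83 CPM, the Res inputs 5.97, 8.24 and 6.60 CPM and the Sus inputs 5.34, 6.19 and 6.43 CPM, and these groups overlapped. With the line as a covariate the log2 fold change was -0.29 ± 0.12 (SE) for Sus against Con, with an unadjusted p of 0.0286 and an adjusted p of 0.988 by edgeR. For Sus against Res it was -0.44 ± 0.12 (SE), with an unadjusted p of 0.00178 and an adjusted p of 0.923. *Sod3* was the 1 gene of 7 called in each. Over all genes 4.35% were called and 1.75% were lower against Con, and 5.30% and 2.33% against Res. Within lines, the log2 ratio of the means of Sus and Con was -0.59 in the D1 line and -0.01 in the D2 line, and the difference between the lines was not tested.

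The call for *Sod3* in Sus against Con inputs was lost without D1-line Con input 2 or 3, D1-line Sus input 1, 2 or 3, or D2-line Con input 1, with an unadjusted p of 0.0592 to 0.0860. The call against Res held without any of the 12 inputs in turn. Summed endothelial markers (69.5 to 71.7 CPM in D1-line Sus, 67.2 to 74.2 CPM in D1-line Con), smooth muscle and pericyte markers (72.3 to 77.4 against 68.9 to 77.1 CPM) and astrocyte markers (731 to 787 against 735 to 915 CPM) overlapped between these groups. Over both lines 1 of 6 astrocyte and 1 of 3 ependymal and choroid plexus markers tested were called lower and 1 of 4 endothelial markers higher in Sus than in Con inputs, and 2 of 4 endothelial markers were higher in Sus than in Res. Their part in the difference in *Sod3* was not tested.

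In D2 IPs *Sod3* was called lower in Sus than in Con, the 1 gene of 7 called where 3.60% of all genes were called and 1.56% were lower, but on very few reads. The D2 Con libraries held 11, 19, 3, 13 and 3 counts and the D2 Sus libraries 7, 1, 0, 3 and 8. By edgeR the log2 fold change was -1.49 ± 0.72 (SE) with an unadjusted p of 0.0464 and an adjusted p of 1.00. The call was lost without D2 Con replicate 1 (unadjusted p of 0.0678), 2 (0.187) or 4 (0.0733), or D2 Sus replicate 2 (0.0999), 3 (0.112) or 4 (0.0752).

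**Figure D3:**
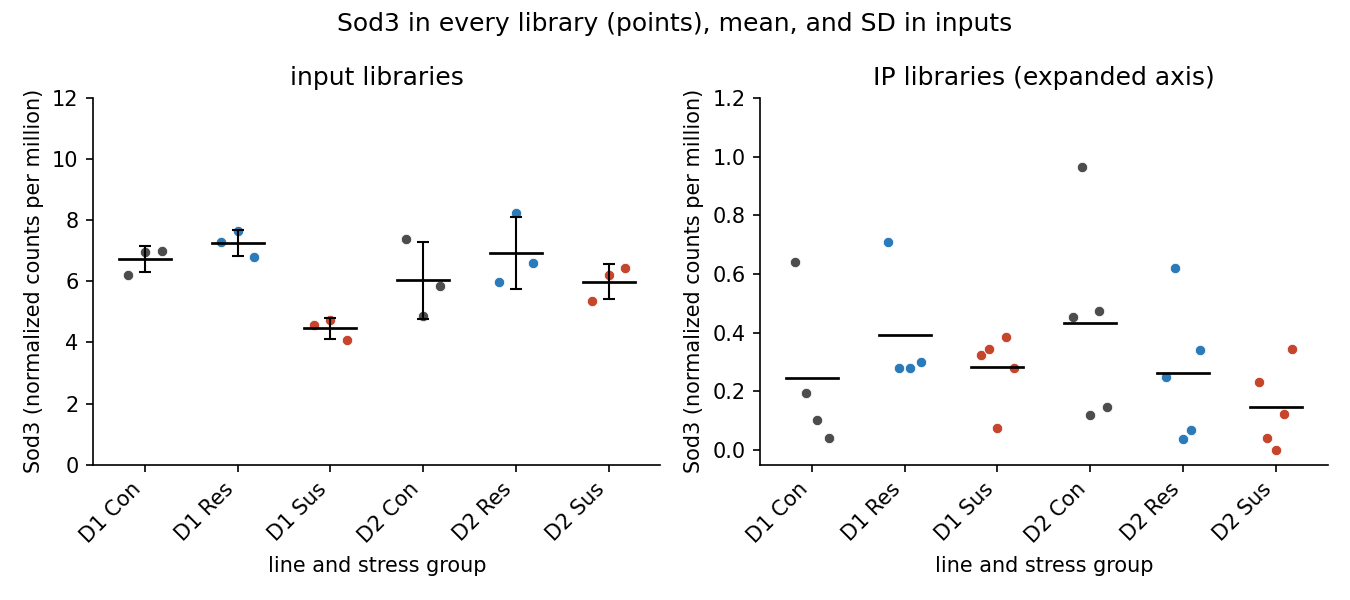
*Sod3* in CPM (y axes) for each line and stress group (x axes), in inputs on the left and in IPs on the right on an expanded axis. Points are libraries, lines are means and bars on the left are SDs, and the 3 D1-line Sus inputs, at 4.09 to 4.74, lie below the other D1-line inputs.

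*Atox1* (chr11:55446641-55461239, minus strand), the chaperone of the copper pump, passed the test between IPs and inputs in neither line. Its lowest, median and highest levels were 8.02, 10.6 and 12.3 CPM for D1 IPs, 6.59, 9.17 and 11.5 CPM for D2 IPs, and 8.18, 9.76 and 12.4 CPM in all 18 inputs. IP over input gave 0.06 ± 0.08 and -0.12 ± 0.08 on the log2 scale (SE) in the D1 and D2 lines, with an adjusted p of 0.460 and 0.149 by edgeR, and with the filter at a mean of 50 counts the D2 value was -0.19 with an adjusted p of 0.0190. No stress comparison of *Atox1* passed the test, and its log2 fold change in D2 IPs of Sus against Con was -0.19 ± 0.12 (SE). In inputs of Sus against Con it was -0.15 ± 0.09 (SE) and was called without D1-line Con input 3 (unadjusted p of 0.0188).

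*Atp7a* (chrX:106027276-106124926, plus strand), the copper pump of the secretory pathway, was lower in IPs than in inputs and was called higher in D2 IPs of resilient mice. Its lowest, median and highest levels were 6.84, 7.96 and 10.2 CPM for D1 IPs, 6.45, 8.89 and 12.1 CPM for D2 IPs and 10.5, 12.6 and 14.3 CPM in inputs. IP over input was -0.57 ± 0.07 (SE, adjusted p = 8.89e-10) on the log2 scale in the D1 line and -0.53 ± 0.07 (SE, adjusted p = 2.68e-09) in the D2 line by edgeR.

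The D2 Con libraries had 6.45, 9.49, 8.89, 8.22 and 8.16 CPM of *Atp7a*, the D2 Res libraries 9.11, 12.1, 9.74, 9.60 and 9.21 CPM and the D2 Sus libraries 9.89, 8.71, 8.38, 8.72 and 7.42 CPM. D2 Res and D2 Con overlapped in a single Con library, at 9.49 CPM. Res against Con had a log2 fold change of 0.27 ± 0.11 (SE), with an unadjusted p of 0.0240 and an adjusted p of 1.00 by edgeR. *Atp7a* was the 1 gene of 7 called, where 2.94% of all genes were called and 1.53% were higher. In this pair of groups same-numbered libraries deviated together. With the replicate number as a block over all 28 IPs the value was 0.27 ± 0.10 (SE, unadjusted p of 0.0145), while calls over all genes went from 418 to 675. That block also ties same-numbered libraries of the other groups, so this fit is not a test on the 5 pairs. In all 5 same-numbered pairs Res was above Con. This restates the group values, since only the Con library at 9.49 CPM reached the range of Res, and it adds no support. In fits without the block the call was lost without D2 Con replicate 1 (unadjusted p of 0.0985) or D2 Res replicate 2 (0.103), the lowest Con and the highest Res library. In D1 IPs the corresponding value was -0.04 ± 0.13, and the difference between the lines was -0.31 ± 0.17 (SE, unadjusted p of 0.0818).

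*Slc31a1* (chr4:62360727-62391769, plus strand), the copper importer, was lower in IPs than in inputs and passed no other comparison. Its lowest, median and highest levels were 11.3, 13.9 and 15.5 CPM for D1 IPs, 12.0, 13.4 and 15.4 CPM for D2 IPs and 15.2, 18.9 and 21.3 CPM in inputs. IP over input was -0.46 ± 0.06 (SE, adjusted p = 1.20e-09) on the log2 scale in the D1 line and -0.48 ± 0.06 (SE, adjusted p = 1.39e-10) in the D2 line by edgeR. In the D1 line IPs and inputs overlapped only between 15.2 and 15.5 CPM. In the D2 line they did not overlap, with IPs up to 15.4 CPM and inputs from 16.7 CPM. *Cdc26*, which overlaps *Slc31a1* on the other strand, was also lower in IPs of both lines (-0.61 ± 0.07 and -0.40 ± 0.06, SE, adjusted p = 2.62e-11 and 3.62e-07 by edgeR).

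Counted over the 7 genes, IP against input called 3 higher and 3 lower in each line at an adjusted p under 0.05, where 39.2% of all genes were higher and 42.6% lower in the D1 line and 37.8% and 44.8% in the D2 line, so that the count is near the background. With a fold change over 1.5 also asked for, 2 of the 7 (*Sod1* and *Sod3*) were called in each line, where 43.0% and 43.6% of all genes were. The genes differed in direction. *Ccs*, *Sod1* and *Sod2* were higher in IPs, *Sod3*, *Atp7a* and *Slc31a1* were higher in inputs, and *Atox1* was called in neither line. The median log2 fold change of all genes tested was -0.04 in the D1 line and -0.08 in the D2 line.

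**Figure D4:**
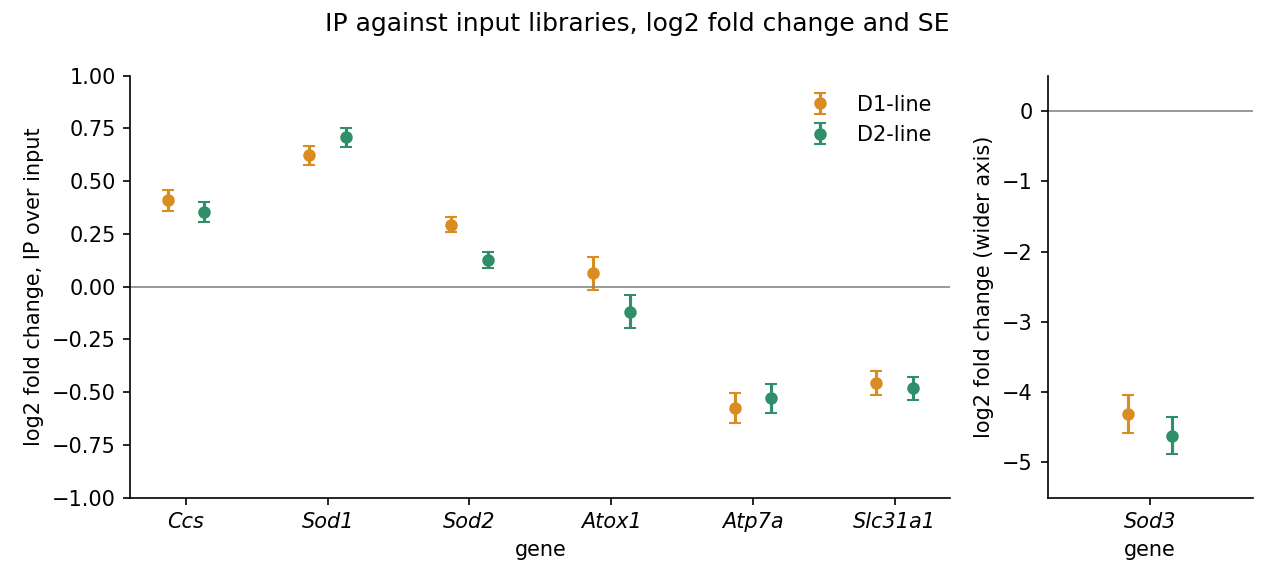
Log2 fold change of IP over input (y axes) for the 7 genes (x axes) in the D1 and D2 lines, with *Sod3* in its own panel on a wider axis. Points are edgeR estimates and bars are SEs, and *Ccs*, *Sod1* and *Sod2* lie above 0 in both lines while *Atp7a*, *Slc31a1* and *Sod3* lie below.

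The inputs of the D1 and D2 lines called none of the 7 genes at an adjusted p under 0.05 by edgeR or DESeq2, where 0.0202% of all genes were called by edgeR. At an unadjusted p under 0.05 there was 1 gene, *Sod2*, with a log2 fold change of -0.07 ± 0.03 (SE, unadjusted p of 0.0190). Neither D2 IPs of Sus against Res nor inputs of Res against Con called any of the 7 genes at an unadjusted p under 0.05 by edgeR or DESeq2, with 1.62% and 3.15% of all genes called.

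**Figure D5:**
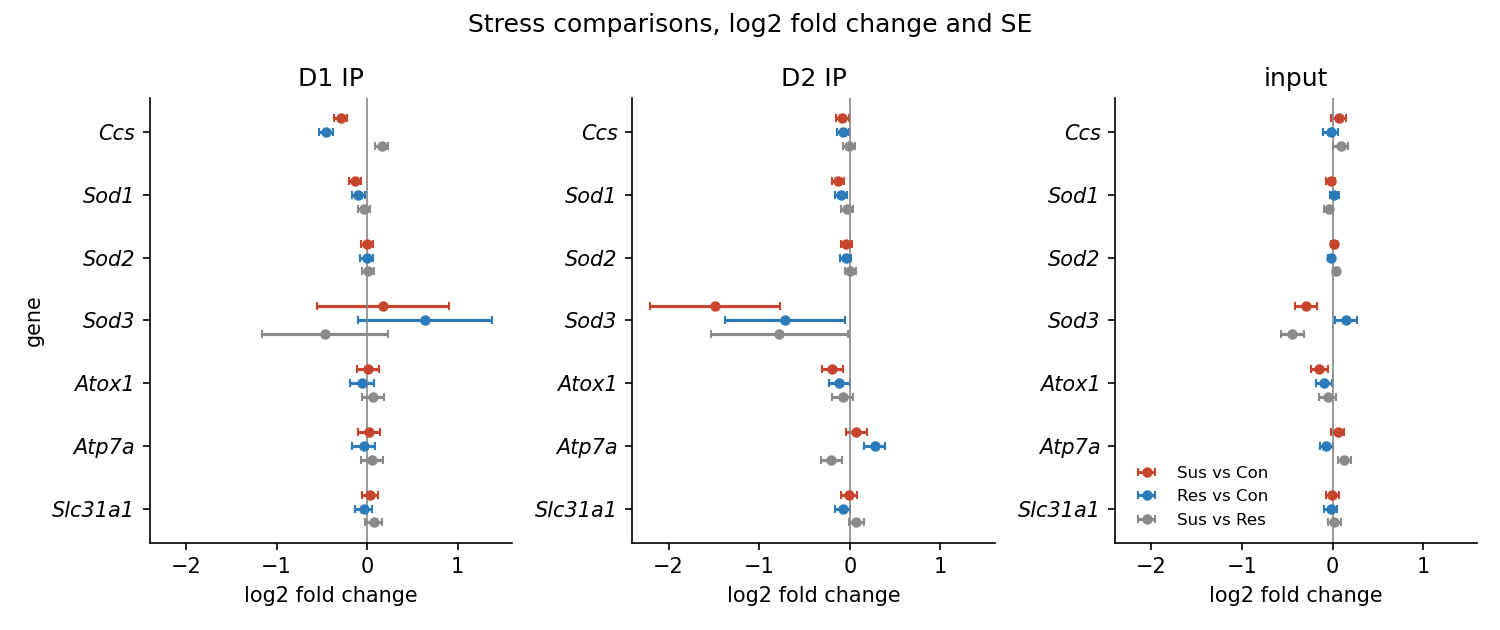
Log2 fold change (x axes) of the 7 genes (y axes) in the 3 stress comparisons, for D1 IPs, D2 IPs and inputs. Points are edgeR estimates and bars are SEs, and *Ccs* in D1 IPs lies at -0.29 for Sus and -0.45 for Res against Con, whereas in D2 IPs it lies at -0.08 and -0.07.

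In the libraries labelled Sirt1-KO the targeted gene did not pass the test at the level of gene counts. *Sirt1* had 432, 502, 415 and 220 counts in these libraries and 387, 453, 458 and 384 in D1 Con, with a log2 fold change of -0.10 ± 0.13 (SE, adjusted p = 0.767, edgeR). A count over the whole gene does not show whether an exon was removed, so the label is used as given. The study's text describes no such libraries, and the age of these mice is not given. Genotype therefore cannot be told apart from other differences between them and D1 Con. Of the 7 genes 6 passed the filter on low counts, since *Sod3* held 1 to 18 counts in these 8 libraries. None of the 6 was called at an adjusted or an unadjusted p under 0.05 by edgeR, or at an adjusted p under 0.05 by DESeq2, where edgeR called 1.80% of all genes. That share is unstable, since leaving out 1 library moved the 245 genes called to between 53 (without D1 Con replicate 3) and 831 (without Sirt1-KO replicate 5).

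On the scale of this table *Ccs* had 11.6, 12.1, 12.9 and 14.4 CPM in the libraries labelled Sirt1-KO and 14.9, 15.1, 13.2 and 14.5 CPM in D1 Con, so that the groups overlapped. By edgeR the log2 fold change was -0.18 ± 0.09 (SE, adjusted p = 0.353), and it again rests on the D1 Con libraries that chose *Ccs*. The other 5 genes had log2 fold changes between -0.13 (*Atp7a*) and 0.02 (*Slc31a1*). Summed cortical excitatory neuron markers were 812 to 1514 CPM in these libraries and 360 to 991 CPM in D1 Con, but none of these 4 markers was called. Called lower were 2 of 4 D1 markers and 1 of 3 cholinergic interneuron markers tested, and 1 of 3 GABA interneuron markers was called higher. *Scaf4*, the gene that overlaps *Sod1* on the other strand, was higher by 0.53 ± 0.09 (SE, adjusted p = 0.0114, edgeR).

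Other genes of copper biology and of peroxide removal were counted in lists of 35 and 36 genes that leave out the 7 described so far. In D1 IPs, Sus against Con called 1 of 28 copper genes tested lower, *Cmc1*, a cytochrome oxidase assembly factor (-0.28 ± 0.13, SE, unadjusted p of 0.0430), and 1 of 36 peroxide genes higher, *Cat*, which encodes catalase (0.14 ± 0.06, SE, unadjusted p of 0.0351, edgeR), where 2.82% of all genes were lower and 2.42% higher. *Cat* stood at 26.8 CPM ± 1.41 (SD, n = 5) in D1 Sus, 24.3 ± 1.95 (n = 4) in D1 Con and 24.1 ± 1.78 (n = 4) in D1 Res, and was called higher in Sus than in Res as well (0.15 ± 0.06, SE, unadjusted p of 0.0261). Sus against Res also called 1 copper gene lower, the assembly factor *Coa6* (-0.26 ± 0.10, SE, unadjusted p of 0.0140), where 2.25% of all genes were lower, and Res against Con 1 copper gene lower, the metallothionein *Mt1* (-0.23 ± 0.11, SE, unadjusted p of 0.0488), where 1.08% were. The copper list had a median log2 fold change of -0.09 in Sus and -0.03 in Res against Con, and the peroxide list of -0.05 and -0.02, with 0.00 over all genes in both.

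In D2 IPs, Sus against Con called 3 of 36 peroxide genes lower and none higher, where 1.56% of all genes were lower and 2.04% higher. They were *Gsr*, the glutathione reductase (-0.13 ± 0.06, SE, unadjusted p of 0.0240), *Glrx5*, a mitochondrial glutaredoxin (-0.18 ± 0.08, SE, unadjusted p of 0.0348), and *Gpx1*, a glutathione peroxidase (-0.16 ± 0.08, SE, unadjusted p of 0.0375, all by edgeR). The same comparison called 2 of 28 copper genes higher, the monooxygenase-like *Moxd1* (0.41 ± 0.15, SE, unadjusted p of 0.0121) and the lysyl oxidase-like *Loxl1* (1.31 ± 0.45, SE, unadjusted p of 0.00694), of which *Loxl1* had a mean of 0.25 CPM in D2 Con. Res against Con called 1 copper gene higher and 1 peroxide gene lower (1.53% of all genes were higher and 1.41% lower), the copper oxidase *Heph* (1.65 ± 0.58, SE, unadjusted p of 0.00781), at 0.11 CPM in D2 Con, and the heme oxygenase *Hmox1* (-0.62 ± 0.28, SE, unadjusted p of 0.0342). Sus against Res called *Heph* (-1.39 ± 0.55, SE, unadjusted p of 0.0168) and *Gpx1* (-0.16 ± 0.08, SE, unadjusted p of 0.0359) lower, where 0.703% of all genes were. Across all stress comparisons, inputs included, no gene of the lists reached 0.05 after adjustment.

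D1 IPs had 8 of 28 copper genes higher and 2 lower than D2 IPs at an adjusted p under 0.05, where 19.5% of all genes were higher and 21.2% lower. *Moxd1* was higher by 1.40 ± 0.09 (SE, adjusted p = 6.67e-14), *Heph* by 2.06 ± 0.29 (SE, adjusted p = 1.40e-06) and *Pam*, an enzyme that amidates peptides, by 0.26 ± 0.03 (SE, adjusted p = 2.11e-07, edgeR). *Mt1* differed by -0.38 ± 0.06 (SE, adjusted p = 6.52e-06) and the metal-responsive factor *Mtf1* by -0.14 ± 0.04 (SE, adjusted p = 0.00221). Of 36 peroxide genes 7 were higher and 4 lower, led by the peroxiredoxin *Prdx4* (0.40 ± 0.08, SE, adjusted p = 0.000177) and the thioredoxin reductase *Txnrd1* (-0.18 ± 0.04, SE, adjusted p = 0.000638).

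Against input, in the D1 line 11 of 28 copper genes were higher in IPs and 13 lower, and in the D2 line 7 and 16, where 39.2% of all genes were higher and 42.6% lower in the D1 line and 37.8% and 44.8% in the D2 line. Of 36 peroxide genes 20 were higher and 10 lower in the D1 line, and 16 and 14 in the D2 line. Higher in both were the glutathione reductase *Gsr* (0.77 ± 0.04 and 0.85 ± 0.04, log2 fold change ± SE) and *Keap1* (0.57 ± 0.03 and 0.58 ± 0.03), which holds the antioxidant factor NRF2 in check. *App*, the amyloid precursor, was higher by 0.98 ± 0.03 and 0.81 ± 0.03, and the mitochondrial carrier *Slc25a3* by 1.09 ± 0.05 and 0.94 ± 0.05 in the D1 and D2 lines. The metallothioneins *Mt1* (-2.19 ± 0.06 and -1.90 ± 0.06) and *Mt2* (-3.39 ± 0.12 and -3.23 ± 0.11) and ceruloplasmin, *Cp* (-4.17 ± 0.19 and -3.78 ± 0.18), were lower, as were the peroxiredoxin *Prdx6* (-1.69 ± 0.04 and -1.90 ± 0.04) and *Nfe2l2*, which encodes NRF2 (-3.69 ± 0.19 and -3.75 ± 0.18), all as log2 fold changes ± SE. Of 9 subunits of superoxide-making oxidases and related enzymes that were tested, 8 were lower in IPs in each line, among them *Ncf1* (-3.47 ± 0.22 and -2.89 ± 0.20) and *Cyba* (-3.82 ± 0.26 and -3.80 ± 0.25).

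In inputs, Sus against Res called 4 of 36 peroxide genes lower and 1 higher, where 2.33% of all genes were lower and 2.97% higher, with *Park7* (-0.15 ± 0.04, SE, unadjusted p of 0.00229), *Txn2* (-0.12 ± 0.05, SE, unadjusted p of 0.0214) and *Txn1* (-0.14 ± 0.06, SE, unadjusted p of 0.0296) first among those lower by edgeR. It also called 2 of 28 copper genes higher, *Cmc2* (0.18 ± 0.08, SE, unadjusted p of 0.0439) and *Xiap* (0.09 ± 0.04, SE, unadjusted p of 0.0433), and 1 lower, *Moxd1* (-0.19 ± 0.08, SE, unadjusted p of 0.0252). Of the peroxide genes, Sus against Con called 3 lower and 1 higher (1.75% and 2.60% of all genes), among them *Prdx4* (-0.25 ± 0.09, SE, unadjusted p of 0.0142), and Res against Con 1 lower and 4 higher (1.73% and 1.42% of all genes), among them *Sesn2* (0.24 ± 0.10, SE, unadjusted p of 0.0226). In the libraries labelled Sirt1-KO 1 of 35 peroxide genes tested was lower, *Txnrd1*, at 66.7 CPM ± 1.40 (SD, n = 4) against 101 ± 8.51 (n = 4) in D1 Con on the scale of that table, a log2 fold change of -0.60 ± 0.06 (SE, adjusted p = 0.00115, edgeR), where 1.15% of all genes were lower.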

How the data were processed

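Per the labels and the study's methods, poly-A RNA was made into stranded libraries (KAPA), sequenced on a NextSeq500, trimmed with cutadapt, aligned to mm10 with STAR and counted with HTSeq. Versions, the gene annotation and the strand setting of the counting are not given in the sources used here. The deposited values are whole-number counts for each gene symbol, not normalized by the authors. Each table held 24552 genes and 5 entries that name no gene, which were left out and took 18.0% to 28.3% of an IP library and 35.9% to 40.0% of an input. In the table with Sirt1-KO libraries, 5 symbols were listed again with identical values and taken once. Of the columns, 2 matched no sample description used here and were left out. The 76 pairs of replicates differed beyond sampling noise (chi-square per gene 3.6 to 104).

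Groups came from the deposited labels. CPM, TMM factors, filters (filterByExpr, minimum count 10, minimum total count 15) and robust quasi-likelihood tests came from edgeR 4.0.16 (R 4.3.3), with p-values adjusted by Benjamini-Hochberg over all genes tested. Models held the 28 IPs (14224 genes), IPs with inputs (15404), inputs with line as covariate (14820), and the Sirt1-KO table (13626). SEs follow from the F statistic. Stress comparisons used an unadjusted p under 0.05, the study's own rule, and others at an adjusted p under 0.05.

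Same-numbered IP and input libraries come from the same homogenates, but the main fits took them as separate libraries. In 5 of those 18 pairs the deviations from group means correlated above 0.1 (r from -0.109 to 0.497). All 5 pairs of D2 Res and D2 Con did (0.13 to 0.237), and they were set side by side when *Atp7a* was described. Between stress groups and between lines the labels give only the number, so nothing in the design makes these libraries pairs. Same-numbered libraries of other groups also deviated together, as in D2 Sus and D2 Con (0.0633 to 0.349) and D1 Sus and D2 Sus (-0.0495 to 0.261). The replicate block was the number as a single factor over all libraries of a model, except that IPs with inputs were blocked by pool.

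The genes and lists were chosen with earlier results of these data known. Named in every comparison were the 7 genes and *Sirt1*, up to 3 called genes per direction and list by smallest p, the 5 genes most like *Ccs*, and genes next to or overlapping them. Alternatives were RLE size factors, other filters, DESeq2 1.42.0, a replicate block, smaller models, other thresholds and each library left out. Programs were tested on simulated counts with known changes. Figures used Python 3.11.15 and matplotlib 3.10.9.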

Additional observations from a re-analysis of the deposited data

Results flagged for a closer look

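Among 49 sets of 4 or 5 libraries (7 genes in each of 7 groups), 6 held a library that stood far from the others by Dixon's criterion, which chance alone meets in about 1 of 20 sets. *Ccs* in D1 Sus had its highest library at 13.8 CPM, with the next at 12.3. *Sod2* had its lowest library at 169 CPM in D2 Res, with the next at 187, and at 168 CPM in D2 Sus, with the next at 189. *Sod3* had its highest library at 0.71 CPM in D1 Res, with the next at 0.298, and at 0.279 CPM among the libraries labelled Sirt1-KO on their own scale, with the next at 0.0702. *Atp7a* in D2 Res had its highest library at 12.1 CPM, with the next at 9.74.

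The effect of susceptibility on *Ccs* differed between D1 and D2 IPs by -0.21 on the log2 scale in the edgeR interaction test, with an unadjusted p of 0.050 and an adjusted p of 1.00, and the test uses the D1 Con libraries that chose *Ccs*.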

How the results depend on the processing

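None of the values recomputed under the alternatives changed direction. Counts are of the 7 genes. With the adjusted in place of the unadjusted p, 0 were called in D1 IPs of Sus against Con, where *Ccs* stood at -0.29, and 0 in D1 Sus against Res, D2 Sus against Con, D2 Res against Con, the interaction and the inputs of Sus against Con and Sus against Res. D1 Sus against Con called 2 with the replicate block and with only its own libraries, where *Sod1* joined *Ccs*. D1 Sus against Res called 0 with a filter at 1 count, with the block and with only its own libraries. D2 Sus against Con called 2 with a filter at 1 count and with the block, and 0 with a filter at a mean of 50 counts or only its own libraries, which by their construction left *Sod3* untested. D1 against D2 IPs called 2 with the block and 0 with a fold change over 1.5, and in controls 0. The interaction called 0 with RLE size factors, either other filter or DESeq2. IP against input called 2 in each line with a fold change over 1.5. Other causes were not tested.

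Leaving out 1 library at a time gave 1 to 2 genes in D1 Sus against Con (*Ccs* -0.33 to -0.26), 0 to 1 in D1 Sus against Res, 0 to 2 in D2 Sus against Con and D2 Res against Con, 0 to 1 in D2 Sus against Res, 0 to 2 between the lines, 0 to 1 between them in controls and in the interaction, and in inputs 0 to 1 for Sus against Con and 1 to 2 for Sus against Res.

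Over all genes, calls went from 292 to 461 (D1 Res against Con), 230 to 432 (D2 Sus against Res) and 247 to 440 (interaction) with a filter at 1 count, from 247 to 162 with a mean of 50, from 3 to 14 (line inputs) and 245 to 741 (Sirt1-KO) with DESeq2, and from 245 to 1671 (Sirt1-KO) with the block. The main fits held no pairs, and IPs and inputs of the same homogenate entered them as separate libraries. Pairing came in only with the block, although part of the same-numbered libraries deviated together. The deviations of 16 of 27 stress pairs in IPs, 8 of 18 in inputs, 9 of 13 between the lines and 0 of 3 for Sirt1-KO correlated above 0.1, and in Sirt1-KO 3 of 3 libraries correlated best with their own number. With the block the call of *Ccs* in D1 Sus against Res was lost and no other called gene was, and *Sod1* was newly called in Sus against Con in D1 and D2 IPs. Leaving out 1 library moved calls over all genes by more than 1.5 times in D1 Sus against Con (745 to 470 without D1 Con replicate 1), D1 Res against Con (292 to 473 without D1 Res replicate 3), D2 Sus against Res (230 to 521 without D2 Res replicate 5), D1 against D2 controls (1954 to 1148 without D1 Con replicate 2), the interaction (247 to 408 without D2 Sus replicate 5) and, without D2-line Sus input 3, inputs of Sus against Con (644 to 1213) and Sus against Res (785 to 1456). In Sirt1-KO 7 of 8 libraries did so: D1 Con 1, 3 and 4 (121, 53 and 66) and Sirt1-KO 1, 3, 4 and 5 (144, 66, 70 and 831, from 245).

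*Sod3* in IPs, at 0 to 19 counts, was at the limit of detection, and *Ccs*, at 237 to 443, allowed an SE of about 0.07 on the log2 scale.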
